A study of Mus musculus with 4 samples.

Results

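The regions described here are peaks that both libraries from Musashi-1-induced mouse intestine shared and that lay more than 10 kb from every peak of the wild-type libraries on the same strand. They were chosen from the peak list of TRE-Msi1 replicate 2 by overlap of at least 1 bp with a peak of TRE-Msi1 replicate 1 on the same strand, and by distance, edge to edge, from both wild-type lists. The number of such peaks was 486, out of 40776 in the TRE-Msi1 replicate 2 list and 240811 in the 4 lists together. They are called shared far peaks below. Where a peak of the same list met the distance but not the overlap, it is called an unshared far peak (n = 26625).

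The libraries are CLIP-seq: RNA is fixed to the proteins it touches with ultraviolet light, an antibody (here against Musashi-1, Msi1) recovers the protein, and the attached RNA is sequenced. Wild-type mice without doxycycline gave 2 libraries, made from isolated crypts. Mice with TRE-Msi1, a transgene that places Msi1 under a doxycycline-responsive element, gave the other 2, made from total intestinal epithelial cells after 24 h of doxycycline. The sources used here do not say which cells carried the doxycycline-dependent activator, or the strain and age of the mice. The source label calls all 4 samples intestinal epithelial cells, and the protocol makes the distinction between crypts and total epithelium. All 4 libraries used the Msi1 antibody, and no mock or input library was analysed here, so a peak is a called position and was not set against a background library. Genotype, doxycycline and the cells taken (crypts against total epithelium) changed together between the groups and cannot be told apart. More cells of a type and more RNA per cell cannot be told apart either.

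Musashi-1 is an RNA-binding protein with a pair of RNA recognition motifs that recognise short UAG-containing stretches of RNA. It is known for controlling the translation and stability of messenger RNAs, often through their 3′ untranslated regions, and in the intestine it is known as a marker of crypt stem and progenitor cells. Cells further up the crypt and on the villus express largely different messenger RNAs from crypt cells. Peaks are named by position in the mouse build mm9, because genes and sequences of that build were not used here. The labelled tissue and the induction of Msi1 itself could therefore not be checked against marker genes.

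The lists differed in form. The wild-type lists held 4863 and 5578 peaks with a median width of 74 and 75 bp. TRE-Msi1 replicate 1 held 189594 with a median of 40 bp (38 to 40 bp), and TRE-Msi1 replicate 2 held 40776 with a median of 75 bp (1 to 75 bp). All members were 75 bp wide. The authors' score, whose unit is not stated, was 0 throughout wild-type replicate 1, a whole number from 4 to 513 in TRE-Msi1 replicate 2 and a number with a decimal from 1.5 to 19.9 in TRE-Msi1 replicate 1. In TRE-Msi1 replicate 1, 70.8% of peaks were on the plus strand, whereas the plus share was 50.9% in TRE-Msi1 replicate 2 and 51.5% and 50.9% for wild-type replicates 1 and 2. The number of reads behind each list is unknown. Every shared far peak depends on TRE-Msi1 replicate 1, so the result cannot be given without that library.

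Being far from a wild-type peak was the rule for peaks of TRE-Msi1 replicate 2 at large and the exception among shared ones. In the whole TRE-Msi1 replicate 2 list 66.5% of peaks lay more than 10 kb from a wild-type peak, and 69.2% of the unshared peaks did. Among the 2310 shared peaks the share was 21.0% (95% Wilson interval 19.4 to 22.7%), and the remaining 1824 lay within 10 kb, 802 of them overlapping a wild-type peak. After each peak of the list was moved by 20 kb in both directions, 83.9% of positions were far. Overlap with TRE-Msi1 replicate 1 occurred in 5.67% of the whole list, and both conditions were met by 1.19% of it. Of the moved positions 0.790% overlapped a replicate 1 peak and 0.525% met both conditions. These shares define the members and carry no test. The intervals hold for independent peaks and include no error beyond counting. No p-values are given for differences between sets of peaks, because peaks of the same library are not replicates.

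The number of members depended on wild-type replicate 1. Without it, with distance taken from wild-type replicate 2 alone, the number rose to 1325 (57.4% of shared peaks), and the median score rose from 7 to 9. Without wild-type replicate 2 it was 653 (28.3%). At the limit, the members nearest to a wild-type peak lay on chromosome 3 at 152122042 to 152122116 (plus strand, 10.126 kb), chromosome 6 at 119887799 to 119887873 (minus, 10.219 kb) and chromosome 5 at 92628893 to 92628967 (plus, 10.478 kb). The shared peaks just outside lay on chromosome 18 at 63823711 to 63823785 (minus, 9.913 kb), chromosome 13 at 100992423 to 100992497 (minus, 9.908 kb) and chromosome 2 at 112203180 to 112203254 (plus, 9.882 kb). TRE-Msi1 replicate 2 scores were 5 to 10 inside and 6 to 8 outside, so the scores on either side of the limit overlapped.

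Sharing of far peaks rose with the replicate 2 score, and most of the rise lay in the few strongest peaks. Of 27111 far peaks, 1.79% (1.64 to 1.96%) were shared. The share was 1.30% (1.05 to 1.62%) at score 4, the lowest score of the list, and 1.27% (1.00 to 1.61%) at score 5. At scores of 6 to 9 it was 1.56% (1.35 to 1.79%). It reached 3.54% (2.96 to 4.23%, 115 of 3251 peaks) at scores of 10 to 19 and 11.2% (8.11 to 15.2%, 34 of 304 peaks) at 20 and over. The intervals of the lowest 3 classes overlapped, and those of the highest 2 lay above them and apart from each other. At every score, far peaks were shared less often than peaks within 10 kb of a wild-type peak, of which 4.93% were shared at score 4 and 35.4% at 20 and over.

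How far these shares stood above those of shifted positions depended on the shift. Shifts of 20 kb gave 0.625% (0.569 to 0.687%) of far positions overlapping TRE-Msi1 replicate 1, so the observed share was 2.87-fold higher. At that share the far peaks would hold 169.6 overlaps in place of 486. Shifts of only 300 bp, added after the positions of replicate 1 peaks had been examined, gave 1.05% (0.969 to 1.14%), and the observed share was then 1.71-fold higher. With the 300 bp shift the ratio was 1.57 for scores of 4 to 9 and 2.13 for scores of 10 and over, where 4.19% (3.58 to 4.90%) were shared against 1.97% (1.67 to 2.32%) after shifting. The observed intervals lay above the shifted ones in both score ranges and with both shifts. Positions 300 bp beside a far peak thus overlapped replicate 1 more often than positions 20 kb away and less often than the peaks themselves.

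**Figure D1:**
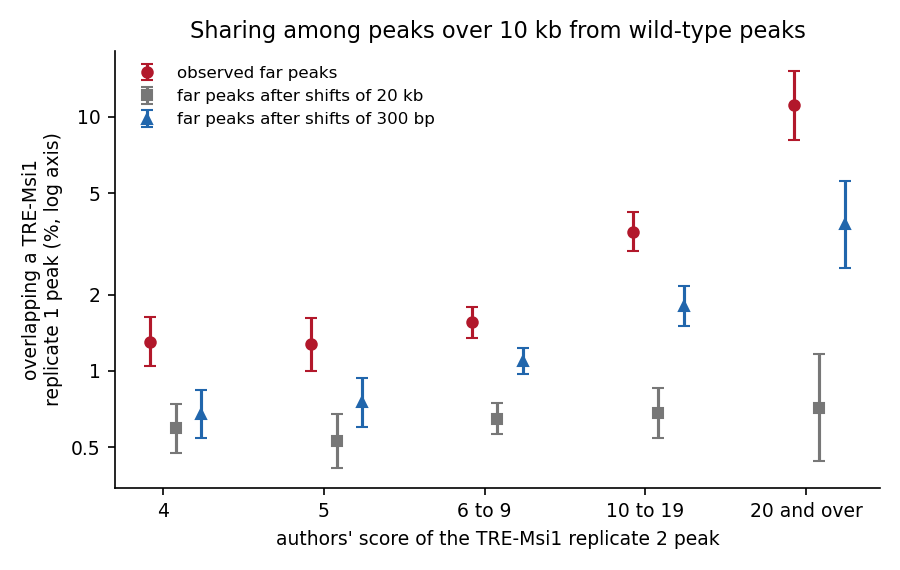
Share of TRE-Msi1 replicate 2 peaks more than 10 kb from wild-type peaks that overlapped a TRE-Msi1 replicate 1 peak on the same strand (vertical axis, %, log scale) by the authors' score (horizontal axis), with 95% Wilson intervals. Circles are observed peaks, squares far positions of the list moved by 20 kb and triangles far peaks moved by 300 bp, both in each direction. The observed share rises from 1.30% at score 4 to 11.2% at 20 and over, the share after 300 bp from 0.677% to 3.78%, and that after 20 kb stays between 0.531% and 0.717%.

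The shared far peaks had a middling median score and a larger share of high scores than unshared far peaks. Their median TRE-Msi1 replicate 2 score was 7 (quartiles 5 and 11, highest 60), against 6 (5 and 8, highest 130) for unshared far peaks and 10 (7 and 18, highest 513) for shared peaks within 10 kb of a wild-type peak. In the top 10% of the list by score were 94 of the 486 members (19.3%, 16.1 to 23.1%), 4.72% (4.48 to 4.99%) of unshared far peaks and 40.6% (38.3 to 42.8%) of shared peaks near the wild type. Peaks that met the rule after shifts of 20 kb had the same median score as the members, 7 (quartiles 5 and 9), and 11.7% (8.97 to 15.1%) of them were in the top 10%. These shifts moved the whole list, peaks near the wild type included, so those scores are not of far peaks alone. By the share in the top 10% the members were above the unshared far peaks and the shifted ones, and below the other shared peaks. Scores of 4 or 5 made up 144 of the 486.

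On the TRE-Msi1 replicate 1 side the members did not stand out. The best-scoring replicate 1 peak over each member had a median score of 1.6 (quartiles 1.5 and 2.1, highest 17.8), against 1.8 (1.6 and 2.4, highest 19.9) in the whole replicate 1 list and 1.8 for the peaks met after shifts of 20 kb. Of the members, 7.82% (5.75 to 10.6%) had a partner in the top 10% of the replicate 1 list, against 6.54% (4.56 to 9.29%) after shifting. For shared peaks within 10 kb of a wild-type peak the median was 2.1 and the top 10% supplied 21.5% (19.7 to 23.4%). Across the members, the scores in the replicate libraries had almost no rank correlation (Spearman's rho 0.022 over 486 peaks). Across the 1824 shared peaks near the wild type rho was 0.335. These correlations are across peaks, which share 2 libraries and are no independent replicates. The top 10% of both lists held 6 members (1.23%), with 94 members in that of replicate 2 and 38 in that of replicate 1.

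The strand balance of the shared far peaks was close to that of TRE-Msi1 replicate 2 and far from that of replicate 1. The plus strand held 238 of 486, or 49.0% (44.6 to 53.4%), against 50.8% (50.2 to 51.4%) of unshared far peaks. Among shared peaks within 10 kb of a wild-type peak it held 44.2% (41.9 to 46.5%). A plus share far below that of replicate 1 was thus not particular to far peaks. Shifted peaks that met the same rule were 70.1% plus-strand (65.6 to 74.2%), close to the 70.8% of the whole replicate 1 list. Members thus had far fewer plus-strand peaks than positions that met replicate 1 after a shift of 20 kb. With the 300 bp shift the plus share was 57.2% over all scores and 50.7% at scores of 10 and over, so the contrast was smaller. By score the members' plus share was 50.0% (41.9 to 58.1%) at 4 to 5, 52.3% (45.3 to 59.3%) at 6 to 9 and 43.6% (35.9 to 51.6%) at 10 and over. The 3 intervals overlapped. The members' share also depended on the overlap rule. It was 54.9% (51.0 to 58.6%) with peaks resized to 75 bp and 54.5% (50.6 to 58.4%) with replicate 1 moved 50 bp downstream. Both values lay above the main interval and below the 70.8% of the replicate 1 list.

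The ratio of observed to shifted sharing was higher on the minus strand. There 248 of 13347 far peaks (1.86%, 1.64 to 2.10%) were shared against 0.381% (0.320 to 0.452%) after shifts of 20 kb, a ratio of 4.88. On the plus strand 238 of 13764 (1.73%, 1.52 to 1.96%) were shared against 0.862% (0.770 to 0.965%), a ratio of 2.01. Minus-strand far peaks scored 10 and over gave 84 of 1752, or 4.79% (3.89 to 5.90%), against 0.520% (0.371 to 0.729%), a ratio of 9.22. Plus-strand peaks of those scores gave 65 of 1803, or 3.61% (2.84 to 4.57%), a ratio of 4.23. The shifted positions of those scores, 6345 minus and 6574 plus, came from the whole list. Many of them therefore began as peaks near the wild type. The 20 kb ratios thus do not set far peaks against their own surroundings alone. With shifts of 300 bp, which moved far peaks only, the ratios over all scores were smaller. They kept the order of the strands, at 2.03 on the minus and 1.46 on the plus strand.

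**Figure D2:**
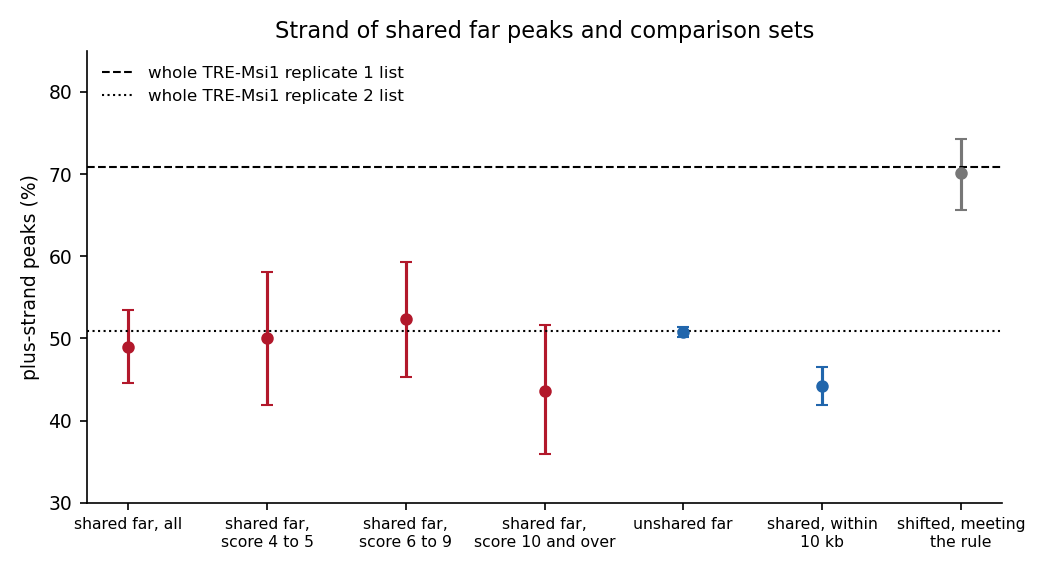
Plus-strand share of peaks (vertical axis, %, with 95% Wilson intervals) for shared far peaks, all and by the replicate 2 score, and for comparison sets. Under the 1 bp overlap rule the shared far peaks sit at 49.0%, near the replicate 2 list (dotted line, 50.9%). Shifted peaks that met the rule sit at 70.1%, near the replicate 1 list (dashed line, 70.8%).

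Replicate 1 peaks did not centre on the replicate 2 peaks they overlapped but lay upstream of them, towards the 5′ end of the RNA. The centre of the replicate 1 peak was a median of 21.5 bp upstream of the centre of the member, and it was downstream in only 159 of 486 (32.7%, 28.7 to 37.0%). After shifts of 20 kb it was downstream in 47.9% (43.2 to 52.6%), with 50% inside the interval. Both strands showed the same side relative to the RNA, with a median of 16.5 bp upstream on the plus and 27.5 bp upstream on the minus strand. Members scored 10 and over (22.5 bp) and 4 to 9 (21.5 bp) were alike in this. The full 40 bp of the replicate 1 peak lay inside the member in 125 cases (25.7%), and 98 members overlapped by fewer than 10 bp. The lists differ in peak width, and how peaks were placed is not stated for either. Whether the offset comes from how the lists were made was not tested, and it bears on every count that rests on overlap.

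The same offset appeared when all far peaks were taken, shared or not. Replicate 1 centres were most frequent 40 to 60 bp upstream, at 6.05 per 1000 far peaks in that 20 bp window, against 1.86 per 20 bp on average at 200 to 400 bp upstream and 1.84 at 200 to 400 bp downstream. Between 20 and 100 bp the mean was 4.69 upstream and 1.84 downstream, and after shifts of 20 kb it was 1.11 and 1.06. Downstream of the peak the frequency was thus no higher than in the flanks. Far peaks scored 10 and over reached 14.6 per 1000 in the same window. Peaks within 10 kb of wild-type peaks had their highest window at the same place, so the offset was not confined to far peaks. The highest window was 40 to 60 bp upstream on the minus strand and 60 to 80 bp upstream on the plus strand.

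**Figure D3:**
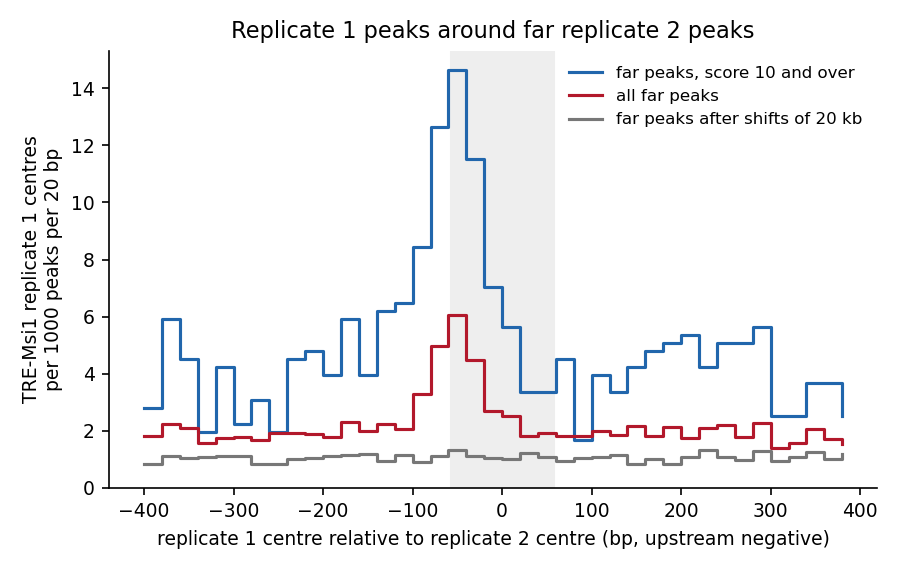
Number of TRE-Msi1 replicate 1 peak centres per 1000 TRE-Msi1 replicate 2 far peaks in 20 bp windows (vertical axis) by distance from the replicate 2 centre along the RNA (horizontal axis, bp, upstream negative). The grey band marks centre distances at which 40 and 75 bp peaks can overlap; the maximum lies 40 to 60 bp upstream, at 6.05 for all far peaks and 14.6 for those scored 10 and over, against about 1 after shifts of 20 kb.

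With this offset, some replicate 1 peaks close upstream of far peaks lay just beyond the overlap rule. A replicate 1 centre lay 20 to 100 bp upstream of 509 far peaks, or 1.88% (1.72 to 2.05%), against 0.444% (0.397 to 0.497%) after shifts. Of these 509, 243 did not overlap and so are counted as unshared. They were 0.913% (0.805 to 1.03%) of unshared far peaks, against 0.221% (0.188 to 0.259%) of those shifted by 20 kb. Replicate 1 centres were also more frequent in the flanks of far peaks than after those shifts. At 200 to 400 bp upstream they averaged 1.86 against 0.999 per 1000 peaks per 20 bp. How many of the 243 would be met by nearness alone was not tested. When all replicate 1 peaks were moved 50 bp downstream, an alternative chosen after the offset was seen, 622 peaks met the rule. With a reciprocal overlap of 50% the number fell to 141, so the count of shared far peaks depends on how closely positions must match.

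The RNA around shared far peaks carried more peaks of both TRE-Msi1 libraries than the RNA around unshared far peaks. Within 1 kb on the same strand, 39.5% (35.3 to 43.9%) of members had a further replicate 1 peak besides the ones they overlapped, against 12.5% (12.1 to 12.9%) of unshared far peaks. Positions that met replicate 1 after shifts of 20 kb had one in 107 of 428 cases (95% interval 21.1 to 29.3%), also more often than unshared far peaks. Members had to overlap a replicate 1 peak and unshared far peaks had to lack one. The rule thus favours stretches with many replicate 1 peaks, and part of the replicate 1 difference is built into the sets. A further replicate 2 peak lay within 1 kb of 37.9% (33.7 to 42.3%) of members and 18.5% (4934 of 26625) of unshared far peaks.

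At like score the difference in neighbours held, but shifted positions were not compared by score. The part that the rule builds into the replicate 1 shares therefore remains in them. At scores of 10 and over 42.3% (34.6 to 50.3%) of members and 20.7% (19.4 to 22.1%) of unshared far peaks had another replicate 1 peak within 1 kb, and at scores of 4 to 5 29.2% (22.4 to 37.1%) and 9.69% (9.15 to 10.3%). For replicate 2 neighbours the shares were 43.0% (35.3 to 51.0%) and 28.4% (27.0 to 30.0%) at 10 and over, and at 4 to 5 they were 36 of 144 (18.6 to 32.7%) and 13.2% (12.6 to 13.8%). Over 10 kb the replicate 2 difference was small, with 64.6% (60.3 to 68.7%) of members and 59.9% (59.3 to 60.5%) of unshared far peaks having a neighbour. At 10 and over the 10 kb shares were 73.8% (66.2 to 80.2%) and 72.2% (70.7 to 73.7%), a difference within the counting error.

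**Figure D4:**
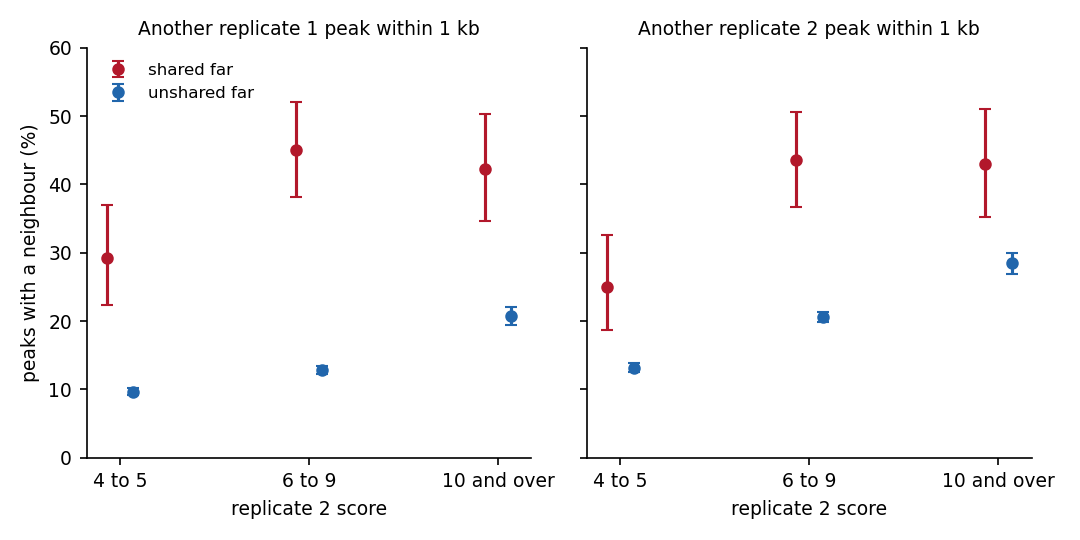
Share of far peaks with another same-strand peak within 1 kb (vertical axis, %, with 95% Wilson intervals) by the replicate 2 score (horizontal axis). The left panel counts TRE-Msi1 replicate 1 peaks that do not overlap the peak itself and the right panel other TRE-Msi1 replicate 2 peaks; shared far peaks (42.3% and 43.0% at scores of 10 and over) lie above unshared far peaks (20.7% and 28.4%) in each score class.

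Most shared far peaks lay alone among themselves. Joined up to 10 kb apart on a strand, the 480 distinct intervals made 448 loci, of which 418 held a single interval, 28 held 2 and 2 held 3. Another member lay within 10 kb of 15.2% (12.3 to 18.7%) of members, against 8.88% (6.54 to 12.0%) among the 428 shifted peaks that met the rule. A second listing of the same interval counts as a neighbour here. With identical intervals counted once the members' share was 12.9% (10.2 to 16.2%), an interval that overlaps the shifted one. It was 35.7% without wild-type replicate 1, 8.51% with a reciprocal overlap of 50% and 8.74% in the top 25% of scores. Among the 1824 shared peaks near the wild type 51.4% had such a neighbour. The share depends on how many peaks a set holds, and the sets differ in size. Of the 486, 6 repeat an interval already listed with a different score.

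Of the pair of loci with 3 members, one spanned 36200272 to 36206946 of chromosome 1 (minus strand). Its members scored 18, 6 and 14 in TRE-Msi1 replicate 2 and their partners 1.9, 1.6 and 1.5 in replicate 1, and the nearest wild-type peak was 24.872 kb away. Replicate 1 had 3 peaks in the stretch and replicate 2 had 4. The other spanned 5908018 to 5910808 of chromosome 11 (plus strand), a stretch of 2791 bp. There the scores were 10, 7 and 6 in replicate 2 and 3.1, 2.9 and 6.5 in replicate 1, which had 6 peaks in the stretch, and the nearest wild-type peak was 207.527 kb away. The members of the chromosome 11 locus thus had the higher-scoring replicate 1 partners of the pair and the lower highest score in replicate 2.

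The next loci by summed score held 2 members each. The one on chromosome 2 at 53009632 to 53012091 (minus strand) scored 39 and 10 in replicate 2 and 1.5 at both in replicate 1, the lowest score of that list, 13.479 kb from a wild-type peak. On chromosome 4 at 40888528 to 40894920 (minus) the scores were 30 and 14 against 1.6 and 1.8, at 87.839 kb. On chromosome 3 at 105531252 to 105540755 (minus) they were 19 and 11 against 1.6 and 1.8, at 204.865 kb. In these 3 loci no replicate 1 partner of a member scored above 1.8, the median of the replicate 1 list. The locus on chromosome 5 at 87441197 to 87441647 (plus) scored 13 and 14 against 2.6 and 2.4, with a wild-type replicate 2 peak 10.898 kb away, just past the limit.

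The single peaks that ranked highest over both TRE-Msi1 lists, by the mean of the score percentiles, were led by 2 that were high in each list. The first lay on chromosome 1 at 193759977 to 193760051 (plus strand). It scored 44 in replicate 2 and 6.9 in replicate 1, and the nearest peaks of wild-type replicates 1 and 2 were 26.327 and 156.602 kb away. Replicate 1 had 20 peaks within 10 kb of it and replicate 2 no other. The second lay on chromosome 2 at 117074149 to 117074223 (plus). It scored 30 and 6.6, with wild-type peaks at 22.63 and 157.414 kb. For both, the nearer wild-type peak belonged to replicate 1.

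Several of the following ones were remote from any wild-type peak on their strand. The third, on chromosome X at 79066905 to 79066979 (minus), scored 32 and 3.4 and was 238.526 kb from a wild-type peak. The fourth, on chromosome 5 at 30093301 to 30093375 (plus), scored 30 and 3.1 at 30.63 kb. The fifth, on chromosome 14 at 70116484 to 70116558 (plus), scored 20 and 3.2 at 657.181 kb. The third to the tenth region scored lower than the first 2 in replicate 1. The sixth, on chromosome 5 at 5849811 to 5849885 (minus), scored 15 and 3.6 at 306.991 kb. The seventh, on chromosome 5 at 37052616 to 37052690 (minus), scored 21 and 3.1 at 501.965 kb and had 9 replicate 2 and 7 replicate 1 peaks within 10 kb, itself and its partner included. The eighth, on chromosome X at 37490830 to 37490904 (plus), scored 11 and 5.8 at 962.569 kb and was the only peak of either TRE-Msi1 list within 10 kb besides its partner. The regions thus ranged from lone peaks to stretches with many peaks. The ninth, on chromosome 17 at 34643809 to 34643883 (minus), scored 14 and 3.4 at 19.213 kb. The tenth, on chromosome 11 at 33052473 to 33052547 (minus), scored 12 and 3.9 at 417.18 kb, and its interval is listed again with a score of 7.

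Ranks 11 to 20 scored 9 to 48 in replicate 2 and 2.3 to 6.9 in replicate 1, 10.659 to 1913.82 kb from a wild-type peak. Of the first 20 regions, on 11 chromosomes, 11 were on the plus and 9 on the minus strand. Of these 20, 8 lay more than 500 kb from any wild-type peak on their strand, and 12 were the single replicate 2 peak within 10 kb. The nearest wild-type peak belonged to replicate 1 for 8 and to replicate 2 for 12. Of all members, 18.3% lay more than 500 kb away or had no wild-type peak on their strand. Another replicate 2 peak lay within 10 kb of 64.6% of all members. By the replicate 2 score alone the highest member, singled out after its values were seen, lay on chromosome 3 at 122266719 to 122266793 (minus), with a score of 60 and a replicate 1 partner scored 1.9. The highest replicate 2 score among members thus came with a replicate 1 score near the median of that list. Over all members, the partners' median replicate 1 score was 1.7 at a replicate 2 score of 4. It was 1.6 at 5 and at 6 to 9, 1.8 at 10 to 19 and 1.9 at 20 and over. After shifts of 20 kb it was 1.8 in each class up to 19 and 1.85 at 20 and over.

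Distance beyond the 10 kb limit, up to 500 kb, changed the excess over shifts of 20 kb little. The median distance of members from a wild-type peak was 87.3 kb (quartiles 27.1 and 333.6 kb), against 94.9 kb (31.9 and 318.5 kb) for unshared far peaks. Of peaks 10 to 20 kb away 2.35% (1.91 to 2.88%) were shared, of those 20 to 50 kb away 1.74% (1.43 to 2.11%), and of those 100 to 500 kb away 1.57% (1.33 to 1.86%). The shifted shares fell alongside, from 0.841% to 0.563%, and the ratio was between 2.63 and 2.80 in each range up to 500 kb. Past 500 kb, 1.98% (1.61 to 2.43%, 89 of 4491) were shared against 0.369% (0.263 to 0.517%), a ratio of 5.38. The median score of members there was 6, no higher than nearer to the wild type, where it ranged from 6.5 to 8. Shifted positions numbered 16401 for 3834 peaks at 10 to 20 kb, 17771 for 8767 at 100 to 500 kb and 8953 for 4491 past 500 kb. Peaks within 10 kb of the wild type, once moved by 20 kb, could enter the ranges up to 50 kb but none beyond. The ratios up to 50 kb thus rest on comparison sets of a different make-up from those beyond. The ranges from 50 to 500 kb and past 500 kb do not differ in this way.

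**Figure D5:**
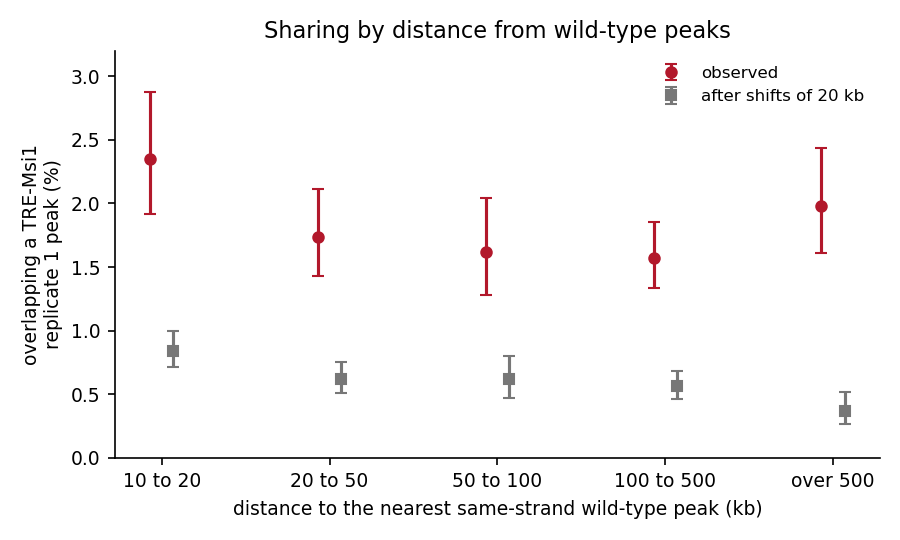
Share of TRE-Msi1 replicate 2 peaks that overlapped a TRE-Msi1 replicate 1 peak (vertical axis, %, with 95% Wilson intervals) by distance to the nearest same-strand wild-type peak (horizontal axis, kb). Circles are observed and squares shifted by 20 kb; observed shares lie between 1.57% and 2.35% and shifted ones between 0.369% and 0.841%.

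The farthest members were 3284.204 kb (chromosome 12 at 45384894 to 45384968, plus strand), 2882.779 kb (chromosome 2 at 38441372 to 38441446, plus) and 2878.021 kb (chromosome 4 at 24829821 to 24829895, plus) from a same-strand wild-type peak. They scored 5, 20 and 16 in replicate 2 and 1.6, 1.5 and 1.6 in replicate 1. On the opposite strand a wild-type peak was nearer, at 76.897, 47.916 and 146.818 kb. Their replicate 1 scores were below the median of that list. Members on Y_random, an unplaced part of the Y chromosome sequence in the build, numbered 2, and no wild-type peak lay on their strand of it.

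Wild-type peaks on the opposite strand, which the rule did not look at, were rare near members and near other far peaks. One lay within 10 kb of 14 members (2.88%, 1.72 to 4.78%) and of 2.91% (2.72 to 3.12%) of unshared far peaks. At scores of 10 and over the shares were 2.01% (0.687 to 5.75%) and 3.64% (3.06 to 4.32%). The difference was within the counting error in both comparisons. The members' share was 5.67% (2.90 to 10.8%) with a reciprocal overlap of 50% and 1.53% (0.834 to 2.80%) without wild-type replicate 2.

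Shared far peaks were spread over all numbered chromosomes and X much as unshared far peaks were. The chromosomes with most were 1, 11 and 2, with 42, 41 and 39. Per length, chromosome 11 had the most, at 0.337 per Mb, and X the fewest, at 0.0780. Chromosome 11 held 8.44% (6.28 to 11.2%) of members and 6.52% (6.23 to 6.82%) of unshared far peaks, whose share lay inside the interval of the members. Chromosome X held 2.67% (1.57 to 4.52%) and 3.25%. Of 20 chromosomes, the share of unshared far peaks lay outside the interval of the members on 2. These were chromosome 1, with 8.64% (6.46 to 11.5%) of members and 6.37% of unshared far peaks, and chromosome 10, with 11 members (2.26%, 1.27 to 4.01%) and 4.52% of unshared far peaks.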

How the data were processed

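Msi1 CLIP-seq peaks of 4 libraries were used, grouped by the sample titles, 2 per group. Per the submitters' processing notes, Bowtie, HOMER and the build mm9 were used; the sources used here give no roles, versions or settings. Each library has a list of its own. The deposited score per peak is the authors'; its unit is not stated, and it served to rank or class peaks within a list. Percentiles give tied scores their mean rank. Coordinates are 1-based, and distance is the number of bases between edges.

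The members, sets and alternatives were chosen with earlier results of these data known. Fixed, not random, shifts moved each peak by 20 kb in both directions. The offset, strand, neighbour and distance descriptions and the 300 bp shift were added after values were seen. Regions described were the 20 distinct members with the highest mean score percentile, the 6 loci with most members (ties by summed score), and 3 each just inside, just outside and farthest from the limit. Annotation and motifs of peaks were not analysed here, and no sequence is printed, since no mm9 genome was used. The rule was tested on simulated lists, and bedtools 2.31.1 differed for 0 peaks in the overlap and in the distance to each wild-type list. Tables were made in pandas 2.3.3 and numpy 2.4.6 under Python 3.11.15, intervals in scipy 1.17.1 and figures in matplotlib 3.10.9. No p-values were computed.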

Additional observations from a re-analysis of the deposited data

How the results depend on the processing

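Of 95 alternative values, 66 stayed inside the main value's 95% interval or, for counts, within 1.5 times it. The number of shared far peaks was 486; it was 141 with a reciprocal overlap of 50%, 296 at 50 kb, 183 in the top 25% of scores and 248 on the minus strand alone. Leaving out a wild-type library gave 653 to 1325. The far share of shared peaks was 18.4% with reciprocal overlap, 25.8% at 5 kb, 12.8% at 50 kb and 13.5% in the top 25%, and 28.3 to 57.4% without a wild-type library. The plus share was 43.2% in the top 25%, 54.9% with peaks resized to 75 bp and 54.5% with replicate 1 moved 50 bp downstream, and 44.2 to 48.5% without a wild-type library. The share with another member within 10 kb was 8.51% with reciprocal overlap, 8.74% in the top 25%, 19.6% after resizing, 9.47% for 1 kb, and 17.2 to 35.7% without a wild-type library. With reciprocal overlap the chromosome 11 share was 12.1% and the opposite-strand share 5.67%; without a wild-type library the latter was 1.53 to 2.11%. The median score was 13 in the top 25%, and 7 to 9 without a wild-type library; the median replicate 1 percentile without one was 47.7 to 58.3. With far peaks cut by score into 5 equal classes, the highest was shared at 3.41%, against 11.2% at scores of 20 and over. The local background was 0.533% with shifts of 50 kb and 1.05% with 300 bp, which moved far peaks only. The cause of these changes was not tested.

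Leaving out a TRE-Msi1 library was not possible, since the rule needs both, and annotation could not be run without mm9. No paired analysis was possible because the values come from no test. Depth is unknown.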
